A study of Mus musculus with 188 samples.

Results

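The 37 genes carried by the mouse mitochondrial genome were followed through single keratinocytes of the tail epidermis, 94 on each of 2 plates. They were chosen by symbol alone, as every gene in the count table whose symbol starts with mt-, and make up 37 of 49585 gene rows. Of the 37, 2 are ribosomal RNAs, 13 are mRNAs and 22 are transfer RNAs. Reads were counted for 22 of them, and 15 were at 0 in every cell.

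The mitochondrial genome is a small circle that sits in many copies in each mitochondrion and is transcribed from both strands into long precursors. These are cut into rRNAs, mRNAs and tRNAs, mostly at the tRNAs that lie between the other genes, and the rRNAs and most mRNAs then receive a short poly(A) tail. The mRNAs encode core subunits of the respiratory chain and of ATP synthase, while the rRNAs and tRNAs serve only the translation of those mRNAs. In the epidermis, basal keratinocytes divide next to the basement membrane and switch on keratin 10 (Krt10) when they leave it to differentiate.

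The cells came from Lrig1-CreERT2/RosaYFP mice at postnatal day 20 and were sorted as Cd34-/Itga6+/YFP-, a gate meant for basal cells of the interfollicular epidermis (IFE). In these mice the Lrig1 promoter drives the inducible Cre that switches on YFP, so cells of the Lrig1 lineage that carry YFP were gated out. All cells share this genotype, age and gate, and they form 1 group with no second condition. No label names an animal, so the cells are not replicates, and spreads and correlations over cells are descriptions without a test. Smart-seq2, which primes reverse transcription on poly(A) with oligo-dT, was run on each plate, and the labels name the plate and well of each cell.

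Gene reads numbered 79868 to 1093805 per cell (median 369991), and 5821 to 8720 genes were detected. Levels are given as CPM, a cell's gene reads scaled to a sum of 1000000 with the ERCC spike-ins left out. Markers of basal keratinocytes summed to 4035 to 120814 CPM, with a median of 70066 CPM. Over all reads together, markers of other cell types summed to 0.0129 CPM for T cells, 0.0388 CPM for Merkel cells, 2.24 CPM for endothelial cells, 10.4 CPM for melanocytes, 18.7 CPM for Langerhans cells and 24.9 CPM for fibroblasts. Cd3e, Cd207, Krt20, Cdh5 and Lum were at 0 in every cell, but other markers on their lists had reads. In single cells the sums reached 598 CPM for melanocyte, 553 CPM for fibroblast, 383 CPM for Langerhans cell and 220 CPM for endothelial markers. The highest sums for Merkel cell and T cell markers were 3.72 and 1.18 CPM. Reads expected to come from other wells, estimated from index rows and columns, were 3.63% to 61.2% of a cell's reads, with a median of 11.3%. Their part in the results was not tested beyond subtracting them, which gave a median mitochondrial share of 6.34% of reads instead of 6.50%.

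Of the 13 mRNAs, 6 had no read in any cell, and these 6 lie side by side. They are mt-Co2 and mt-Co3 (cytochrome c oxidase, complex IV), mt-Atp8 and mt-Atp6 (ATP synthase), and mt-Nd3 and mt-Nd4l (NADH dehydrogenase, complex I). A 0 in all cells allows a read in up to 1.60% of cells, by counting error only. The annotation places near-identical copies of this stretch in the nuclear genome. On chromosome 1, 7 unprocessed pseudogenes with at least 99% identity follow each other in the order of mt-Co1, mt-Co2, mt-Atp6, mt-Co3, mt-Nd3, mt-Nd4l and mt-Nd4. They span 4654 bases of the minus strand (chr1:24611535-24616188, GRCm38) and match 4653 bases of the mitochondrial genome (chrM:6390-11042). The gaps between the copies equal those between the mitochondrial genes, at 140, 233, 2, 69 and -4 bases, except for 74 bases on chromosome 1 against 73 in mitochondria before mt-Nd4l.

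The first 60 bases of 2 genes at 0 and the edge of the block in mt-Co1 show how little separates gene and copy. The sequences are from GENCODE M21 on GRCm38, read 5′ to 3′ along each gene's strand, and capitals mark a differing base.
mt-Co2, chrM:7013-7072, plus strand: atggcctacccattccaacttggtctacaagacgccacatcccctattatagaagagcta
Gm28661, chr1:24615506-24615565, minus strand: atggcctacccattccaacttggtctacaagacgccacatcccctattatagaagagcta
mt-Nd3, chrM:9459-9518, plus strand: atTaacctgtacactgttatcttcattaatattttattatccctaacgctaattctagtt
Gm28438, chr1:24613060-24613119, minus strand: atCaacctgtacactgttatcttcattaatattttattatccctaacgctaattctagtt
mt-Co1, chrM:6390-6449, plus strand: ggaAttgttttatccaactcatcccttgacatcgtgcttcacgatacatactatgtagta
Gm29216, chr1:24616129-24616188, minus strand: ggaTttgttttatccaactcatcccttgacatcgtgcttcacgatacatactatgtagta

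The mt-Co2 pair is identical over the stretch shown and over all 681 aligned bases. The mt-Nd3 pair differs at 1 base, T3C, and the mt-Co1 pair at 1 base, A1066T, both counted from the first base of the mitochondrial gene. Of all 50-base windows of a gene, the share found without change in a nuclear transcript was 100% for mt-Co2, 99.9% for mt-Co3, 99.5% for mt-Atp6, 98.8% for mt-Nd4l and 97.99% for mt-Nd3. It was 62.2% for mt-Nd4, 51.1% for mt-Co1, 8.19% for mt-Nd2 and 7.61% for mt-Nd5, all of which had reads. With 100-base windows these shares were 60.8%, 30.8%, 3.19% and 0%, while the 5 genes named before them kept 97.6% to 99.9%. It was 0% for mt-Rnr1, mt-Rnr2, mt-Nd1, mt-Nd6 and mt-Cytb. The exception is mt-Atp8, which had no read although none of its windows is in an annotated nuclear transcript. All of its bases lie inside the copied span, partly in the 233-base gap between the mt-Co2 and mt-Atp6 copies, for which no genome sequence was used here. How reads that match several places were handled is not given in the sources used here, and whether such reads account for the zeros was not tested.

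Most of the copies were at 0 as well. Of the 7 near-identical copies, 5 had no read in any cell: Gm28661, Gm10925, Gm28437, Gm10222 and Gm28439, the copies of mt-Co2, mt-Atp6, mt-Co3, mt-Nd4l and mt-Nd4. Gm29216, the mt-Co1 copy, had 9 reads. Gm28438, the mt-Nd3 copy, stood apart with 2186 reads in 93.6% of cells. Gm28438 ranged from 0 to 149.03 CPM with a median of 21.3 CPM, and was at 0 in 12 cells. It differs from mt-Nd3 at 1 of 345 aligned bases, and whether its reads come from mitochondrial RNA was not tested. Between Gm28438 and the summed mitochondrial rRNAs, Spearman's rho was 0.41 over all cells, 0.42 on plate 1 and 0.32 on plate 2. Among 16 nuclear copies with at least 100 aligned bases at 90% identity, 10 had reads. After Gm28438 came Gm13340, a copy of mt-Co1 with 97.6% identity, with 206 reads, and Gm13341, a copy of mt-Co2 with 95.9% identity, with 81 reads. The other 7 had 31 reads or fewer each, and were Gm43743, Gm11512, Gm29216, Gm11410, Gm11407, Gm4076 and Gm11408.

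Both rRNAs stood among the most abundant rows of the table. mt-Rnr2, the 16S rRNA of the large mitochondrial ribosomal subunit (chrM:1094-2675), had 11882, 30906 and 60428 CPM as its lowest, median and highest value. It averaged 31856 ± 9262 CPM (SD over all cells) and ranked 3 of all genes by mean. mt-Rnr1, the 12S rRNA of the small subunit (chrM:70-1024), had 4312, 10014 and 18790 CPM, averaged 10400 ± 2954 CPM and ranked 6. Every cell had both at 4312 CPM or more, and no cell fell near 0. These levels include reads expected from other wells, put at 3.63% to 61.2% of a cell's reads, so presence in each cell is not shown by them alone. The ratio of mt-Rnr2 to mt-Rnr1 reads was 3.08 ± 0.365, with a range of 2.26 to 4.17. Per kilobase of gene the levels were 20137 CPM for mt-Rnr2 and 10890 CPM for mt-Rnr1, so length does not remove the difference.

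Among the mRNAs, mt-Co1, the catalytic subunit of complex IV (chrM:5328-6872), had the highest level, with 2033, 7927 and 15483 CPM as lowest, median and highest value and 7995 ± 1975 CPM on average. mt-Cytb, the only mitochondrially encoded subunit of complex III (chrM:14145-15288), had 1440, 6459 and 12783 CPM and averaged 6617 ± 1811 CPM. These genes and mt-Nd1 were detected in every cell and ranked 7, 8 and 11 by mean.

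The complex I subunits spread over a wide range of levels. mt-Nd1 (chrM:2751-3707) had 529, 5430 and 13053 CPM as lowest, median and highest value and averaged 5530 ± 1769 CPM. mt-Nd5 (chrM:11742-13565) had 375, 2326 and 5173 CPM and averaged 2401 ± 818 CPM. mt-Nd4 (chrM:10167-11544) had 194, 1048 and 2322 CPM and averaged 1103 ± 377 CPM. Below these, mt-Nd2 (chrM:3914-4951) had 63.6, 458 and 1695 CPM and averaged 496 ± 250 CPM. mt-Nd6 (chrM:13552-14070), the only mRNA encoded on the other strand, had 18.2, 213 and 620 CPM and averaged 228.9 ± 113.6 CPM. The ends of mt-Nd5 and mt-Nd6 overlap at bases 13552 to 13565, and no source states that counting was by strand, so reads there cannot be told apart. For the same reason, reads over the rest of mt-Nd6 may come from either strand.

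Per kilobase of gene, mt-Cytb (5784 ± 1583 CPM), mt-Nd1 (5778 ± 1849 CPM) and mt-Co1 (5175 ± 1278 CPM) lay within 1 SD of each other. They were followed by mt-Nd5 at 1316 ± 448 CPM and mt-Nd4 at 800 ± 274 CPM. Lowest were mt-Nd2 at 478 ± 241 CPM and mt-Nd6 at 441 ± 219 CPM, which also overlapped. If reads came only from 50-base windows without a nuclear copy, and evenly from those, mt-Co1 would stand at 10937 CPM per kilobase of such windows and mt-Nd4 at 2197 CPM. On that basis mt-Nd1 stood at 6090 CPM and mt-Cytb at 6043 CPM. The order of mt-Co1 against mt-Nd1 and mt-Cytb thus turns with this assumption, while mt-Nd4 stays below all of them and moves past mt-Nd5 at 1464 CPM. mt-Nd2 and mt-Nd6 remain lowest, at 546 and 487 CPM.

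The tRNAs gave 2240 reads in all, 0.0432% of mitochondrial reads. Mature tRNAs end in CCA rather than a poly(A) tail. The highest were mt-Tp (proline) with 593 reads, mt-Tl1 (a leucine tRNA) with 579 and mt-Tt (threonine) with 387, and their sequences, also from GENCODE M21 on GRCm38, show the size of the target:
mt-Tp, chrM:15356-15422, minus strand: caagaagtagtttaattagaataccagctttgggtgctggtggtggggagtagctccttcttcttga
mt-Tl1, chrM:2676-2750, plus strand: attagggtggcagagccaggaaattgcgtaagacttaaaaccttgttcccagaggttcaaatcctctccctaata
mt-Tt, chrM:15289-15355, plus strand: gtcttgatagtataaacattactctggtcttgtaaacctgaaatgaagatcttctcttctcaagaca

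mt-Tp had a read in 69.7% of cells (exact Clopper-Pearson 95% interval 62.6% to 76.2%, counting error only) and averaged 7.52 CPM. mt-Tl1 had one in 60.6% of cells (53.3% to 67.7%) and averaged 7.14 CPM, and mt-Tt in 55.9% (48.4% to 63.1%) with 5.10 CPM. The intervals of mt-Tp and mt-Tl1 overlap. mt-Tl1 lies between mt-Rnr2 and mt-Nd1, and mt-Tt directly follows mt-Cytb, so each touches an abundant gene. mt-Tp lies next to mt-Tt on the other strand. By total reads, mt-Tq (glutamine) and mt-Tm (methionine) followed, with averages of 2.36 and 1.43 CPM, and the other 8 tRNAs with reads averaged 0.0150 to 1.45 CPM. At 0 in every cell were mt-Tw, mt-Tn, mt-Ty, mt-Ts1, mt-Td, mt-Tk, mt-Tg, mt-Th and mt-Te. Of the 5 tRNAs inside the copied span, 4 were at 0, against 5 of the 17 outside it.

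**Figure D1:**
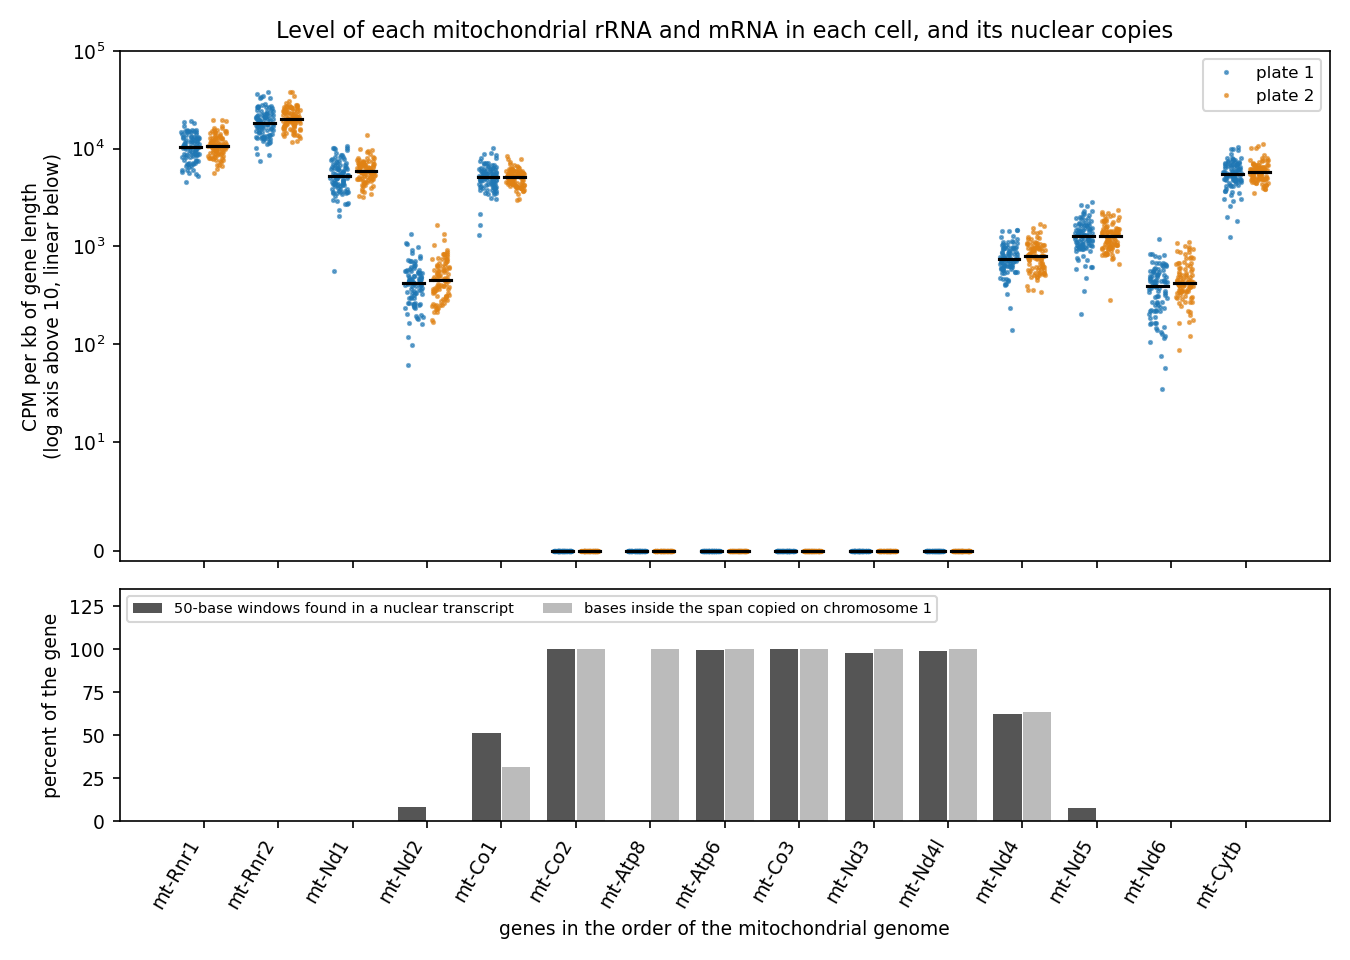
Level of the 2 rRNAs and 13 mRNAs in each cell, in CPM per kb of gene length (upper panel, 1 point per cell, black bars are plate medians), and the percent of each gene with a nuclear copy (lower panel). The 6 genes at 0 in every cell are those inside the span copied on chromosome 1, while mt-Co1 and mt-Nd4, which lie partly inside it, have reads.

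Mitochondrial reads made up 6.67 ± 1.68% of a cell's gene reads (SD over all cells), with 2.42%, 6.50% and 11.8% as lowest, median and highest share. The median was 6.27% on plate 1 and 6.62% on plate 2. Most of this was rRNA: over all cells together, the 2 rRNAs gave 63.2% of mitochondrial reads, the mRNAs 36.7% and the tRNAs the rest. mt-Rnr2 alone gave 47.8%. By complex, the 5 counted complex I mRNAs gave 14.7%, mt-Co1 11.97% and mt-Cytb 10.0% of mitochondrial reads. These mRNA shares cover 7 of 13 mRNAs, since the others were at 0.

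The rRNA share of mitochondrial reads varied little between cells, at 63.1 ± 4.76% with a range of 51.6% to 81.3%. Reads of the rRNAs exceeded those of the 7 counted mRNAs in every cell, by 1.07-fold to 4.34-fold with a median of 1.71-fold. The 6 mRNAs at 0 are missing from this ratio, so it does not cover all mitochondrial mRNA. In the mRNA pool, mt-Co1 gave 33.02 ± 3.79% of mRNA reads, mt-Cytb 27.2 ± 3.52% and mt-Nd1 22.5 ± 3.70%, while mt-Nd5 gave 9.79 ± 2.14%, mt-Nd4 4.58 ± 1.43%, mt-Nd2 2.02 ± 0.808% and mt-Nd6 0.923 ± 0.385%. Relative to their means, the shares of the less abundant mRNAs varied more, and that of mt-Nd6 ranged from 0.217% to 2.43%. Summed mRNA and summed rRNA moved together over cells, with a rho of 0.68 over all cells, 0.71 within plate 1 and 0.64 within plate 2. The points share each cell's depth and the CPM total.

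A few cells stood off this line. The cell in well F2 of plate 1 had the highest rRNA share, 81.3%, and the lowest mRNA level, 5302 CPM. Its rRNA level was 23021 CPM, mt-Nd1 was at 529 CPM, and it had 6095 genes with a read and 1.60% spike-in reads. The cell in well A12 of plate 1 had an rRNA share of 80.7% with both classes at other levels: its rRNAs stood at 70317 CPM and its mRNAs at 16705 CPM, in a library of 127863 reads and 1.87% spike-in reads. The lowest rRNA share, 51.6%, was in well A9 of plate 1. The lowest mitochondrial share, 2.42%, was in well B10 of plate 1, where rRNA and mRNA were both low at 16194 and 7983 CPM and Krt10 stood at 23560 CPM. The highest mitochondrial share, 11.8%, was in well G4 of plate 2, with 73472 CPM of rRNA and 44460 CPM of mRNA. Without the cells in F2 and A12, an alternative chosen after the data were seen, the median rRNA share was 62.9%.

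**Figure D2:**
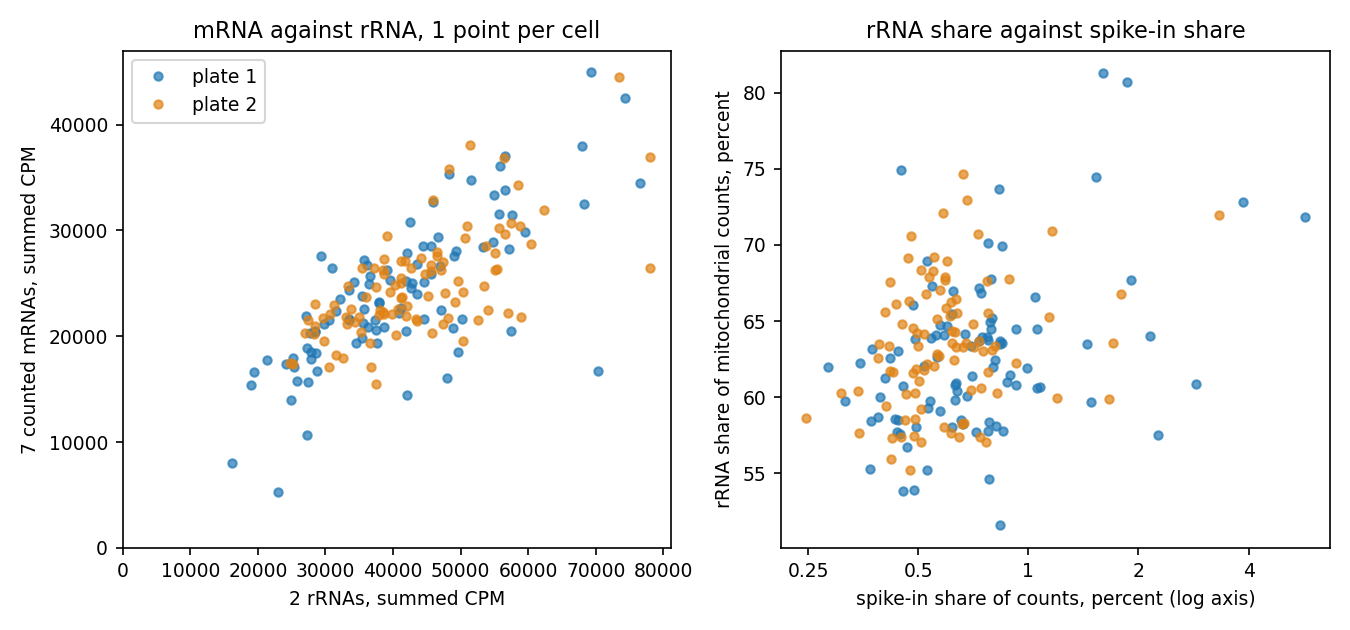
Left, summed mRNA against summed rRNA in CPM, 1 point per cell, coloured by plate, with a rho of 0.68 over all cells. Right, rRNA share of mitochondrial reads against the spike-in share of all reads (log axis), where the 2 cells above 80% rRNA have 1.60% and 1.87% spike-in reads.

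All 7 members with a mean of at least 1000 CPM varied less between cells, relative to their mean, than the median of the 73 other genes at that level. Over the 9 rRNAs and mRNAs with reads, the coefficients of variation were 24.7% for mt-Co1, 27.4% for mt-Cytb, 28.4% for mt-Rnr1, 29.1% for mt-Rnr2, 31.99% for mt-Nd1, 34.1% for mt-Nd5, 34.2% for mt-Nd4, 49.6% for mt-Nd6 and 50.4% for mt-Nd2. The 73 other genes had a median of 42.95%, with quartiles of 32.5% and 52.9%. The basal keratin Krt14 stood at 43.5% and Krt10 at 181.1%. A rule of size counted a gene as variable where the square of this coefficient reached 2 times what the spike-in trend gives, on each plate, and it counted 2.2% of 3685 genes with a mean of at least 50 CPM. It counted 5 of the 9 members that could be examined. The trend falls steadily with level, and the 2.2% covers genes of all levels from 50 CPM up. A share among genes at the level of the counted members is not given here, so the 2 shares are not set against each other. The smaller of the 2 plates' ratios to the trend was 15.4 for mt-Rnr2, 5.38 for mt-Rnr1, 3.05 for mt-Nd1, 2.86 for mt-Cytb and 2.36 for mt-Co1. It was 1.66 for mt-Nd5, 0.879 for mt-Nd4, 0.849 for mt-Nd2 and 0.388 for mt-Nd6. The counted members are those of highest level, and the spike-ins reach only 1897 CPM equivalents on plate 1 and 1568 on plate 2, so for these 5 the trend is extended beyond any spike-in. In the same sense Krt14 had a ratio of 31.4 and Krt10 of 110.

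**Figure D3:**
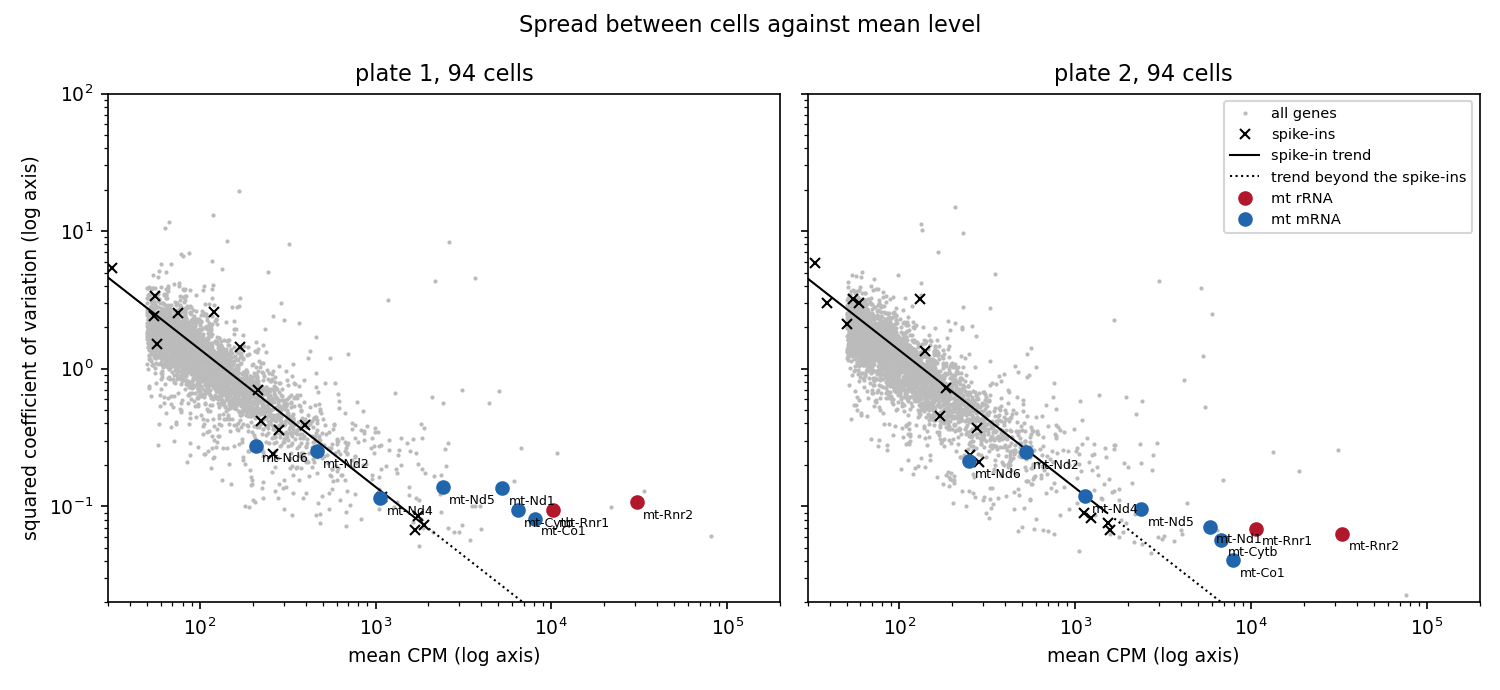
Squared coefficient of variation against mean CPM (both log axes) for all genes with a mean of at least 50 CPM, the spike-ins and the 9 mitochondrial genes, on each plate. The line is the spike-in trend, dotted beyond the highest spike-in: mt-Nd6, mt-Nd2 and mt-Nd4 lie on or below it, and the 5 most abundant members lie above its extension.

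Among the 9 rRNAs and mRNAs with reads, rho over cells was above 0 in every pair. mt-Rnr1 and mt-Rnr2, neighbours on 1 precursor, had the highest rho, 0.91 over all cells, 0.93 on plate 1 and 0.89 on plate 2. The 21 pairs of mRNAs had a median rho of 0.50, with a range of 0.37 to 0.66 and plate medians of 0.59 and 0.42. The 14 pairs of an mRNA and an rRNA had a median of 0.57, with a range of 0.47 to 0.66 and plate medians of 0.64 and 0.48. The highest mRNA pair was mt-Co1 with mt-Nd5 (0.66) and the lowest mt-Nd2 with mt-Co1 (0.37). mt-Nd6, whose reads cannot be assigned to a strand, had a rho of 0.66 with mt-Rnr2, the highest of any mRNA with an rRNA. The lowest pairs of an mRNA and an rRNA were mt-Nd2 with mt-Rnr1 (0.47) and mt-Cytb with mt-Rnr1 (0.49). The sparse tRNAs followed less. mt-Tl1 had a rho of 0.028 with its neighbour mt-Rnr2 (0.029 on plate 1, 0.019 on plate 2) and of 0.15 with its neighbour mt-Nd1 (0.13 and 0.20). With mt-Rnr2, mt-Tt had 0.12 (0.20 and 0.056) and mt-Tp 0.12 (0.12 and 0.080).

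**Figure D4:**
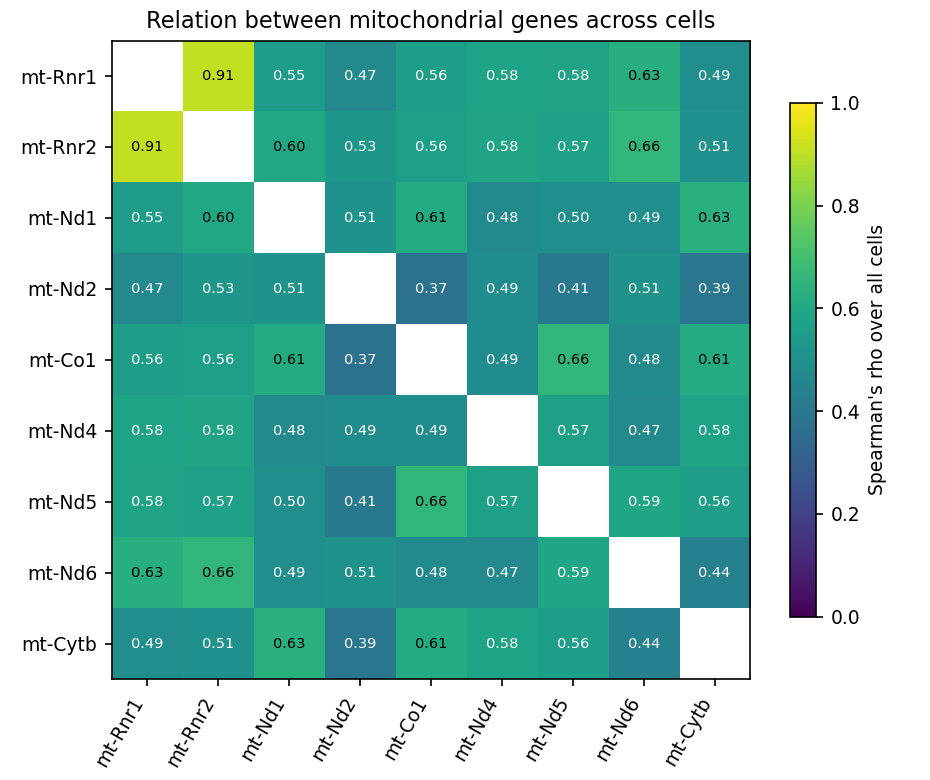
Spearman's rho over all cells for each pair of the 9 mitochondrial rRNAs and mRNAs with reads, in genome order. The pair of rRNAs stands at 0.91, and the other pairs lie between 0.37 and 0.66.

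Krt10 separates cells that have begun to differentiate from those that have not, and the mitochondrial genes followed it weakly. Over all cells, summed mRNA had a rho of -0.11 with Krt10 CPM (-0.12 on plate 1, -0.18 on plate 2). Summed rRNA had -0.10 (-0.085 and -0.22), and pooled size factors put mRNA at 0.0067. After the subtraction of reads expected from other wells, the values were -0.025 for mRNA and -0.063 for rRNA. Scaling to spike-in reads gave 0.34 and 0.28, but there the mitochondrial genes and Krt10 share the spike-in count as denominator. Mitochondrial reads per spike-in read, set against Krt10 CPM without that scaling, had a rho of 0.0027 (-0.12 on plate 1, 0.069 on plate 2). In CPM, 8 of the 9 genes had a rho below 0 with Krt10, from -0.21 for mt-Co1 to 0.034 for mt-Nd2. The middle 90% of all 9344 genes examined lay between -0.19 and 0.17, so of the 9 genes mt-Co1 alone fell just outside it, as did mt-Tl1 among the tRNAs at -0.23. A gene was counted as related where its rho was at least 0.3 in size on both plates. That held for 0.631% of genes in the positive and 0.471% in the negative direction, and for 0 of the 12 members examined, which are the 9 genes and mt-Tl1, mt-Tt and mt-Tp, the tRNAs at 10 CPM in at least 10% of cells. In counts, that is 59 genes up and 44 down, and scaling to spike-in reads instead gave 258 up and 0 down.

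Cells with Krt10 above 3 times the reads expected from other wells numbered 54, 23 on plate 1 and 31 on plate 2, and were set against the other cells. Krt10 varies continuously, and 23 cells lay within 1.5-fold of the limit, between 2 and 4.5 times background. The mitochondrial share had a median of 6.201% (2.42% to 11.8%) in the Krt10 cells, against 6.65% in the other cells. The rRNA share of mitochondrial reads had a median of 60.5% in the Krt10 cells and 63.5% in the other cells, and it was lower on both plates, at 59.8% against 62.6% on plate 1 and 61.6% against 64.2% on plate 2. Both distributions overlapped over most of their range. The Krt10 cells also had fewer spike-in reads, with a median of 0.510% against 0.643%, and more other RNA per spike-in read, with 184.6 against 142.6 reads. Mitochondrial reads per spike-in read had a median of 11.7 in the Krt10 cells and 10.2 in the other cells. By these medians the direction thus depends on the scale: per total reads the Krt10 cells held less mitochondrial RNA, and per spike-in read more. As a rank relation with Krt10 CPM, reads per spike-in read showed no such rise, with the rho of 0.0027 given above (-0.12 on plate 1, 0.069 on plate 2). Spike-in share moved with Krt10, and its part in the difference was not tested.

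The cell cycle was read from the mean z score of 33 G2/M genes and of 30 S phase genes. Summed mRNA had a rho of -0.022 with the G2/M score over all cells (0.0026 on plate 1, -0.060 on plate 2). Summed rRNA had -0.015 (-0.051 and 0.051). Scaling genes and score alike to spike-in reads, which they then share as denominator, gave 0.23 and 0.24. Mitochondrial reads per spike-in read had a rho of 0.054 with the score from CPM (0.046 on plate 1, 0.12 on plate 2). None of the 12 members was counted with the G2/M score, where 0.493% of genes were counted in the positive and 0.0% in the negative direction. In 39 cells with at least 25% of the G2/M genes at 10 CPM or more, the mitochondrial share had a median of 6.399%, against 6.50% in the other cells. Within each plate it was higher in the G2/M cells, at 6.29% against 6.14% on plate 1 and 6.89% against 6.60% on plate 2, so the pooled order does not hold within plates. Near that limit, at 20% to 30% of the genes, lay 28 cells. The rRNA share was 61.9% in the G2/M cells and 63.1% in the other cells. Depth differed, with a median of 231944 reads in the G2/M cells and 397884 in the other cells, and its part was not tested.

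The S phase score had a positive relation with all 9 genes, from a rho of 0.068 for mt-Nd4 to 0.27 for mt-Co1, over all cells. Summed mRNA had a rho of 0.23, but it was 0.35 on plate 1 and 0.098 on plate 2, and summed rRNA 0.16, with 0.25 and 0.041. Pooled size factors gave 0.11 for mRNA and 0.088 for rRNA. Scaling genes and score alike to spike-in reads, which they then share as denominator, gave 0.50 and 0.47. Mitochondrial reads per spike-in read had a rho of 0.28 with the score from CPM (0.44 on plate 1, 0.10 on plate 2). The upper end of the middle 90% of all genes was 0.23, which mt-Co1 and mt-Nd5 (0.25) passed, and the median of all genes was 0.057. None of the 12 members was counted, where 1.12% of genes were counted in the positive and 0.118% in the negative direction. mt-Nd5 and mt-Co1 had the highest values on plate 1, 0.38 and 0.36, and 0.10 and 0.16 on plate 2.

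A cell that gave less RNA has a higher spike-in share, and rRNA had the higher rho with that share than mRNA. Summed rRNA had a rho of 0.25 with the spike-in share over all cells (0.21 on plate 1, 0.38 on plate 2), and summed mRNA of 0.082 (-0.019 and 0.26). The rRNA share of mitochondrial reads had a rho of 0.25 as well (0.32 and 0.21). By gene, the values ran from -0.056 for mt-Cytb to 0.24 for mt-Rnr1 and 0.25 for mt-Rnr2, while the middle 90% of all genes lay between -0.18 and 0.096. Both rRNAs thus lay outside that range, as did mt-Co1, mt-Nd4, mt-Nd6 and mt-Nd5 at 0.10 to 0.11. For these mRNAs the sign was not stable: Pearson's r of log2 values ran from -0.11 for mt-Co1 to -0.060 for mt-Nd6. It stayed above 0 for mt-Rnr1 (0.14) and mt-Rnr2 (0.12). By plate, rho was 0.048 and 0.21 for mt-Co1, 0.038 and 0.24 for mt-Nd4, 0.12 and 0.18 for mt-Nd6, and 0.15 and 0.053 for mt-Nd5. None of the 12 members reached 0.3 on both plates, where 0.0107% of genes were counted in each direction. The cells with most spike-in reads, F8 with 5.70% and E11 with 3.86% on plate 1, had rRNA shares of 71.9% and 72.8%. They were also low in genes with a read, at 5821 and 6118, and the part of cell quality was not tested.

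In absolute terms, mitochondrial reads per spike-in read ranged 40.3-fold between cells, and all other reads per spike-in read 24.3-fold. On plate 1 the ranges were 40.3-fold and 20.8-fold, and on plate 2 they were 9.39-fold and 14.4-fold, so the order of the 2 ranges turns between plates. The lowest value was that of the cell in well F8 of plate 1. Without it, an alternative chosen after the data were seen, the ranges over all cells were 14.9-fold for mitochondrial and 16.7-fold for other reads. Over all cells the pair had a rho of 0.73 (0.72 on plate 1, 0.66 on plate 2), in which both share the spike-in count as denominator. Against this, the mitochondrial share of reads ranged 4.88-fold, with or without that cell.

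**Figure D5:**
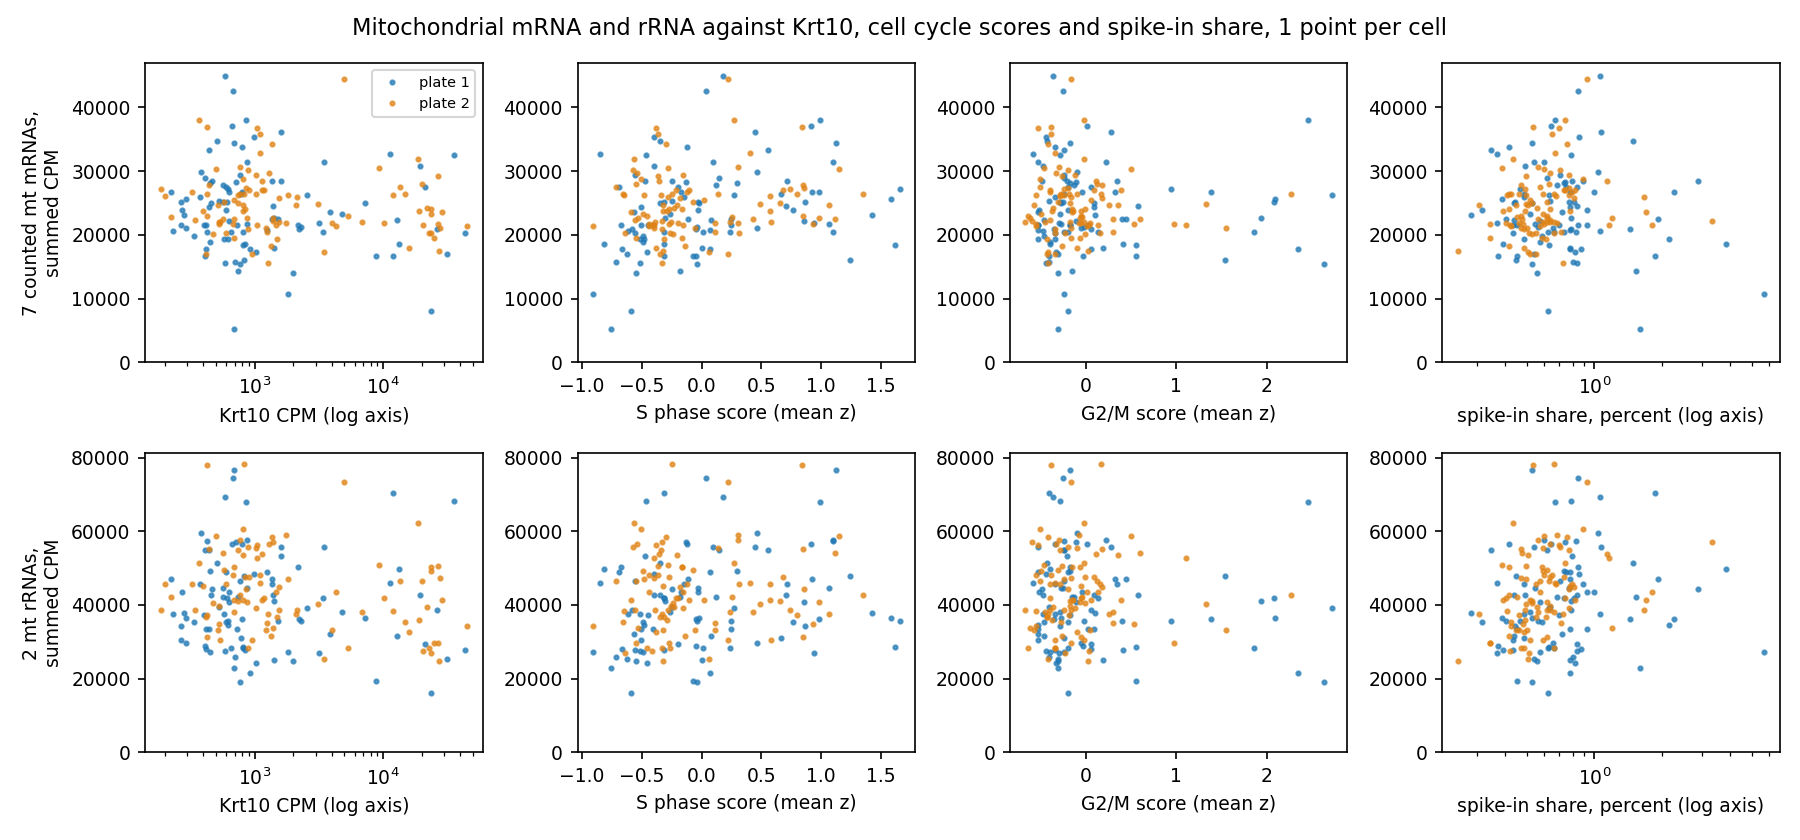
Summed mitochondrial mRNA (upper row) and rRNA (lower row), in CPM, against Krt10 CPM, the S phase score, the G2/M score and the spike-in share, 1 point per cell, coloured by plate. The 8 values of rho over all cells lie between -0.11 and 0.25, and the 2 largest are rRNA with spike-in share (0.25) and mRNA with the S phase score (0.23).

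Outside the mitochondrial genome, few nuclear genes followed the summed mRNA. Of 9333 genes examined, 0.0107% were counted with it in the positive direction and 0.0% in the negative. That gene was Dst, which encodes the hemidesmosome linker dystonin, at a rho of 0.30 within plate 1 and 0.35 within plate 2. Next came Col17a1, the hemidesmosome collagen, with 0.30 and 0.31, and then Tsix, Map3k20, Smarca2, Eif4enif1 and Slc38a2, whose nearer plate stood at 0.25 to 0.28. Dst and Col17a1 are both markers of basal keratinocytes. The mean z score of the basal marker list had a rho of 0.14 with summed mRNA (0.14 on plate 1, 0.18 on plate 2). With the mitochondrial share, this score had a rho of 0.11 (0.080 and 0.19), while the summed CPM of these markers had -0.13. The sign thus turned with the measure of the markers. At the other end were Snx6 (-0.29 and -0.30), Rplp0 (-0.32 and -0.28), Rpsa, S100a14, Eef1a1, Pim3, Rps3a1 and Ufm1. Rplp0, Rpsa and Rps3a1 encode cytosolic ribosomal proteins and Eef1a1 the elongation factor of cytosolic translation.

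With summed rRNA, 0.0107% of genes were counted in the positive direction and 0.075% in the negative. The highest was Gm28438, the near-identical mt-Nd3 copy described above, whose reads were not tested for a mitochondrial origin. It was followed by Fndc3b, CT010467.1, Tubgcp6, Lars2, Hexim1 and Clstn1, with 0.25 to 0.27 on the nearer plate. CT010467.1 was by far the most abundant of these, at 78618 ± 16356 CPM, and stood at 0.26 within plate 1 and 0.56 within plate 2. What lies behind these relations was not tested. Lars2 encodes the mitochondrial leucyl-tRNA synthetase, and stood at 0.26 within plate 1 and 0.37 within plate 2. The lowest was Eif5a, a cytosolic translation factor, with -0.38 on plate 1 and -0.50 on plate 2, then Dstn, an actin-severing protein, with -0.34 and -0.40. Atp5b, the catalytic beta subunit of ATP synthase encoded in the nucleus, followed with -0.52 and -0.33, and after it Tom1l1, Rce1, Myd88, Chchd3 and Ints13. Chchd3 is part of the mitochondrial cristae organising complex.

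Of the nuclear genes on 6 lists for mitochondrial functions and cell stress, only Atp5b was counted with either class of mitochondrial RNA. Of 15 listed genes of mitochondrial transcription and replication 14 could be examined, and of these, among them Top1mt, Ssbp1 and Tfam (the main packaging and transcription factor of mitochondrial DNA), none was counted with mRNA or rRNA, and Tfam had a rho of 0.050 with mRNA. Of 22 listed genes of mitochondrial RNA processing and decay 19 could be examined, and of these, with Hsd17b10, Rexo2 and Grsf1 as the most abundant, none was counted, and the median rho with mRNA was 0.025. Of 19 listed genes of mitochondrial mass and biogenesis 18 could be examined, and none was counted, and Slc25a3, the phosphate carrier, stood at -0.19 with mRNA and -0.24 with rRNA, Slc25a5 at -0.12 and -0.21 and Slc25a4 at 0.16 and 0.048. Ppargc1a, a coactivator of mitochondrial biogenesis, was at 0 in every cell. Of 12 listed genes of cell stress and the integrated stress response 8 could be examined, with Atf4, Asns and Jun as the most abundant, and none was counted.

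Of 32 mitochondrial ribosomal protein genes, none was counted, but 24 had a rho below 0 with mRNA and 26 with rRNA, including Mrps14 and Mrpl20. Their median rho was -0.037 with mRNA and -0.075 with rRNA, beside 0.0096 and -0.010 for all genes examined. In shares, 75% of them lay below 0 with mRNA and 81.2% with rRNA, beside 45.5% and 54.9% of all genes examined. Their summed level was 3794 ± 742 CPM and had a rho of -0.28 with rRNA (-0.22 on plate 1, -0.34 on plate 2). Of 74 nuclear genes of oxidative phosphorylation, 1 was counted with rRNA, Atp5b in the negative direction, and 48 had a rho below 0 with mRNA and 44 with rRNA. These are 64.9% and 59.5% of the list, beside the same 45.5% and 54.9% of all genes. The 7 mitochondrial mRNAs with reads summed to 24371 ± 6002 CPM and these 74 nuclear genes to 24396 ± 3252 CPM. The mitochondrial sum lacks the 6 mRNAs at 0, so the sums do not compare the levels of the 2 sets. The rho between the sums was -0.18 (-0.26 and -0.11). Cox4i1 and Uqcrc1, among the most abundant of them, had 0.039 and 0.013 with mRNA. Since CPM sum to a fixed total, a cell with more mitochondrial reads has fewer of all others. With mitochondrial reads left out of the total of the listed genes, the ribosomal protein genes had a rho of -0.20 with rRNA (-0.14 and -0.28) and of -0.10 with mRNA, where plate 1 stood at 0.0035 and plate 2 at -0.22. The oxidative phosphorylation genes had a rho of -0.081 with mRNA (-0.15 and -0.019) and of -0.041 with rRNA, which was -0.16 on plate 1 and 0.074 on plate 2.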

How the data were processed

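Single cells on 2 plates were analysed, 94 on each. The authors deposited raw read counts per gene, whole numbers that were not normalized. Per the submitters' processing notes, HTSeq 0.6.0, STAR 2.5.2b and cutadapt 1.13 were used with GRCm38. The sources used here do not give settings (strand and multiply mapped reads included), read length or annotation. No unique molecular identifiers were used, so intervals cover counting error only.

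Counts were scaled to CPM over 49585 gene rows without the 92 spike-in rows. Symbols matched 49326 identifiers. Transcripts of the 37 genes were aligned with BLAST+ 2.17.0 to all other GENCODE M21 transcripts (GRCm38), and a nuclear copy needed at least 100 aligned bases at 90% identity. Only annotated transcripts were searched. Relations are Spearman's rho over cells (scipy 1.17.1), computed for every gene that 10% of cells held at 10 CPM. A gene was counted where rho was at least 0.3 in size on both plates. Variability was compared with the spike-in trend a1/mean + a0 (statsmodels 0.14.6), with a0 held at 0 where its fitted value was negative, which was so on both plates. Cell cycle scores are mean z scores of log2(CPM + 1) over those list genes that 5% of cells held at 10 CPM. Reads from other wells were estimated from 8 genes at 32.3 per 10000 reads in the same index row, 10.1 in the same column and 1.58 elsewhere. The calculations were tested on simulated data.

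Named genes are all members (the 5 tRNAs with most reads, those at 0 by name and the rest as a range), the 8 genes at each end of the relation with summed mRNA and summed rRNA, the 3 most abundant of each mitochondrial list, nuclear copies with reads, and Krt10. Of the genes this rule selects, 2 are not reported here. The members and lists were chosen with earlier results of these data known.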

Additional observations from a re-analysis of the deposited data

How the results depend on the processing

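Alternatives in normalisation, depth, stray reads, low-count filter, scale, plates and cells left out were computed for 19 results. Among the correlations 9 values moved by more than the difference between plates, or 0.1 where that is smaller, all with scaling as the choice. This limit is wide where plates differ. For mRNA with the spike-in share it was 0.279, and the rho there ranged from -0.092 to 0.26 without being counted as moved. Scaling to spike-in reads gave a rho of 0.873 for mRNA with rRNA, a median of 0.741 for pairs of mRNAs, 0.336 and 0.284 for mRNA and rRNA with Krt10, 0.226 and 0.236 with the G2/M score, and 0.496 and 0.469 with the S phase score. Every gene of a cell then shares the spike-in denominator by construction. Pooled size factors (scran 1.30.0) gave 0.0067 for mRNA with Krt10, and the cause was not tested. Across alternatives the median mitochondrial share was 6.27% to 6.62%, the median rRNA share 62.1% to 63.3%, and 5 to 6 members were counted as variable. Without the cell in well F8 of plate 1, the range of mitochondrial reads per spike-in read was 14.9-fold instead of 40.3-fold. Leaving out this cell, or the 2 cells with the highest rRNA share, was chosen after the data were seen. Thinning each cell to 75000 reads moved none of the 12 results it was run for beyond these limits. No paired analysis was possible because all cells form 1 group.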
